A study of Mus musculus with 3 samples.

Results

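Hox genes encode homeodomain transcription factors and lie in 4 clusters, Hoxa, Hoxb, Hoxc and Hoxd. Members of a cluster are numbered by paralogue group, and low numbers are switched on towards the head of the embryo and high numbers towards the tail and the ends of the limbs. Cells in culture often keep the Hox pattern of the body region they came from. The bones of the face and the front of the skull vault form largely from neural crest cells that do not express Hox genes.

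The values analysed were those of every probe whose gene symbol begins with Hoxa, Hoxb, Hoxc or Hoxd followed by a number. There were 33 such probes among 23473 on the array, 1 for each of 33 genes, of 39 Hox genes in the mouse gene table. The remaining Hox genes were not analysed here. The rule reads the gene symbol and no intensity, although the gene family was picked with earlier results of these data known.

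RNA came from 3 lines of mouse OP9 stromal cells, with 1 array for each. The parental line, OP9, was derived from the calvaria, the roof of the skull, of a newborn B6C3Fe-a/a-Csf1op/Csf1op mouse. OP9-GFP expressed green fluorescent protein, and OP9-DL expressed GFP together with Delta-like 1, a ligand of Notch receptors. All 3 lines share the Csf1op/Csf1op background and were grown in alpha-MEM with fetal bovine serum. The labels do not name the vector or promoter, nor whether a line was 1 clone. With 1 array per line there is no replicate error, no test was run, and every difference below is a difference between 3 arrays, in which the transgene cannot be told apart from anything else that differed between the cultures.

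The authors' intensities are scaled so that the median probe with a value reads 20 on each array. A probe was taken as bright enough to compare when it had a value on all 3 arrays and its mean log2 value reached the 25th percentile of such probes, an intensity of 6.13. The Dll1 probe read 14.0 in OP9, 20.5 in OP9-GFP and 333.3 in OP9-DL, high in the line labelled with Delta-like 1. Of 13 probes for stromal genes, 10 to 11 reached 6.13 on an array, among them Vim (18420 to 32110) and Col1a2 (5145 to 6613), while Thy1 (1.1 to 3.0) and Dcn (1.9 to 3.7) did not. Of the 11 stromal genes that could be compared, 2 passed 2-fold between OP9 and both other lines, as Hoxa10 did below. Of all probes compared, 11.6% passed in OP9-GFP against OP9 and 11.2% in OP9-DL against OP9, in either direction. Pdgfra, a receptor of platelet-derived growth factor, read 800.6, 166.1 and 127.1 in OP9, OP9-GFP and OP9-DL. Col1a1, a chain of type I collagen, read 269.3, 712.9 and 557.0. The part of such differences between the cultures in the Hox readings was not tested. Runx2, the transcription factor that defines the bone lineage, read 13.7, 15.4 and 15.0 in OP9, OP9-GFP and OP9-DL.

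Many Hox probes gave little signal. Of the 33, 14 (42.4%) reached the brightness limit, 13 (39.4%) had values on all arrays but a mean below it, and 6 (18.2%) were blank on 1 or 2 arrays. Over all 23473 probes the corresponding shares were 66.4%, 22.1% and 9.48%, and another 2.02% were blank on every array, where no Hox probe was. An intensity of 20 or more on all 3 arrays was reached by 8 Hox probes (24.2%), against 43.1% of all probes. A dim or blank probe does not show that a gene was silent, because probes differ in how well they bind, so levels are compared below only between arrays and never between genes.

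**Figure D1:**
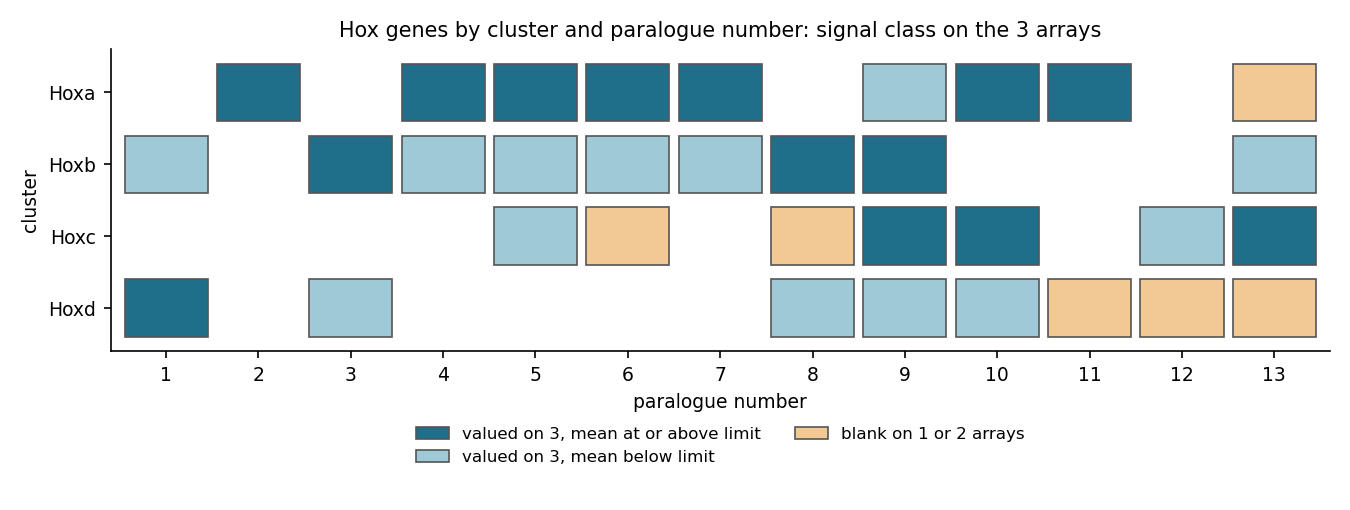
Signal class of each Hox gene by cluster (rows) and paralogue number (columns); dark boxes had a mean intensity at or above 6.13, light boxes a mean below it, orange boxes were blank on 1 or 2 arrays, and positions without a box were not analysed here or hold no gene. In the Hoxa row 7 of 9 probes are dark, and in the Hoxd row 1 of 8.

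The counts by cluster describe which probes can be compared, and no order of expression between genes or clusters is read from them. In Hoxa 7 of 9 probes reached the limit, in Hoxb 3 of 9, in Hoxc 3 of 7 and in Hoxd 1 of 8. Of the probes for paralogue groups 1 to 3, 3 of 5 reached it, of groups 4 to 8, 5 of 13, and of groups 9 to 13, 6 of 15. The bright probes include genes of the head end, Hoxa2 and Hoxd1, and of the tail end, Hoxa11 and Hoxc13. A bright probe does not by itself show that its gene was expressed. Among markers of other cell types, 5 to 7 of 13 blood cell probes reached the limit on an array. So did 1 to 2 of 7 endothelial probes and 2 to 3 of 4 epithelial probes. Whether such readings, or those of the bright Hox probes, come from the named gene was not tested.

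**Figure D2:**
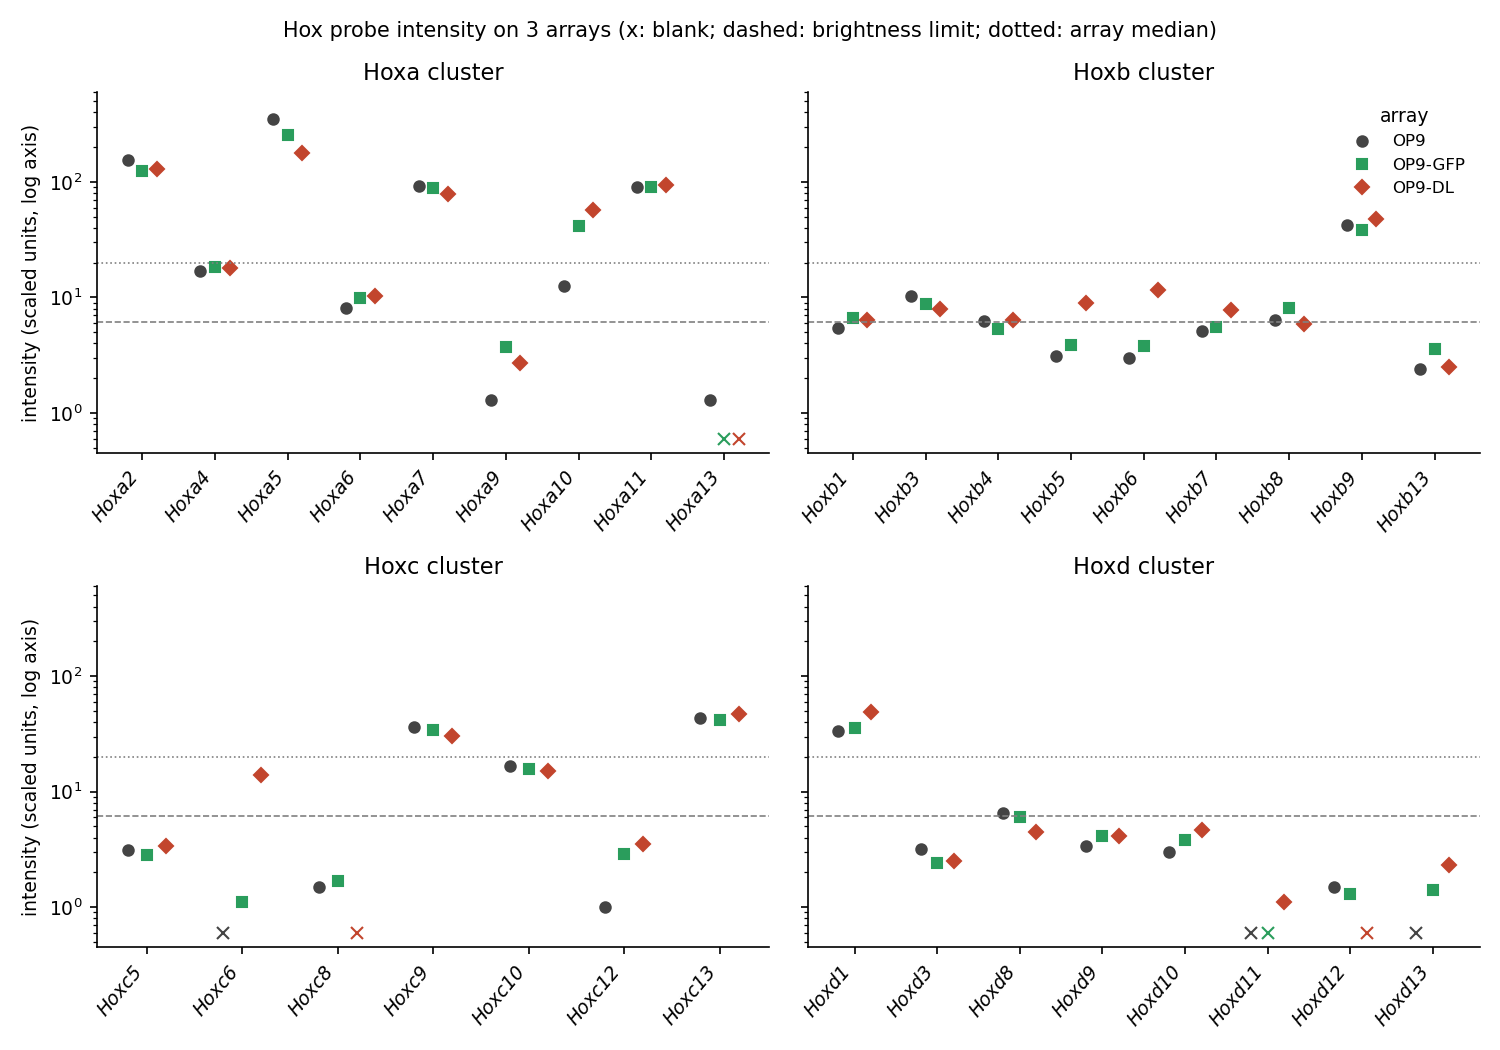
Intensity of each Hox probe (log axis, authors' scaled units) on the OP9 (circle), OP9-GFP (square) and OP9-DL (diamond) arrays; crosses at the bottom mark blanks, the dashed line the brightness limit of 6.13 and the dotted line the array median of 20. Most bright probes show 3 overlapping points, while Hoxa10 runs from 12.5 to 57.6 and Hoxc6 from blank to 14.0.

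In the Hoxa cluster, Hoxa10, a posterior gene best known for its part in the uterus and the limb skeleton, differed by more than 2-fold between lines. Its probe read 12.5 in OP9, 41.1 in OP9-GFP and 57.6 in OP9-DL. Both lines with GFP were high and the parental line was low: OP9-GFP stood 3.29-fold and OP9-DL 4.61-fold above OP9, and OP9-DL 1.40-fold above OP9-GFP. Among the 15581 probes compared, 145 (0.931%) were at least as far above OP9 on the OP9-GFP array as Hoxa10, and 91 (0.584%) on the OP9-DL array.

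Hoxa5, a central gene needed for lung and neck development, ran the other way. It read 351.5 in OP9, 254.1 in OP9-GFP and 178.6 in OP9-DL. Against OP9 it was 1.38-fold lower in OP9-GFP and 1.97-fold lower in OP9-DL, just short of 2-fold, and 7.21% of compared probes were at least as low on the OP9-DL array.

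The stretches before the start sites of Hoxa10 and Hoxa5 are shown because these were the only bright Hox genes that differed by 1.5-fold or more between any arrays. Each runs over 250 bases up to the start site, on the minus strand of GRCm38.p6 as given by RefSeq. The table used here holds 2 start sites for Hoxa10. Capitals mark matches to any of 4 motifs, searched on both strands: TGGGAA, the core bound by the Notch effector RBPJ; TTTATG, a core bound by Cdx proteins; TGATTNAT, a joint site of Hox and Pbx proteins; and TATAAA, the TATA box.
Hoxa10, outer start, chr6:52240855-52241104: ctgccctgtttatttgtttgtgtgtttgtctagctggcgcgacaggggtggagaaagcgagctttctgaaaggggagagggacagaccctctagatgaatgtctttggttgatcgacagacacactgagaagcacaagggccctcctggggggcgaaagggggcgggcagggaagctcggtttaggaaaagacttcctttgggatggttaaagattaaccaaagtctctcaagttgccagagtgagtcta
Hoxa10, inner start, chr6:52234940-52235189: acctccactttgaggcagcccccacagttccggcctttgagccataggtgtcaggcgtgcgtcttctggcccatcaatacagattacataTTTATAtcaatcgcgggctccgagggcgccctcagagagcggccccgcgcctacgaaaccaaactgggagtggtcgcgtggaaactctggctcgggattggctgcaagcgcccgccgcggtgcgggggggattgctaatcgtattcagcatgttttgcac
Hoxa5, chr6:52204588-52204837: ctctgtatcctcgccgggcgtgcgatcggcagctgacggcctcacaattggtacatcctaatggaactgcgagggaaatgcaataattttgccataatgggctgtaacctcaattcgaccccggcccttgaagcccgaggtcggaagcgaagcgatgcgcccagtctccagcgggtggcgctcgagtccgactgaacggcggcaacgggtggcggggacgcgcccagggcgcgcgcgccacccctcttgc

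In these letters a match was found at the inner Hoxa10 start alone, to TATAAA on the opposite strand, beginning 160 bases before the start. It is a match of letters, and whether it works as a TATA box was not tested. Of 32851 such windows for all genes, 12.4% held that motif, 21.6% the RBPJ core, 10.8% the Cdx core and 2.82% the Hox and Pbx site. Of the 33 Hox genes, 19 had a window in the table, 21 windows in all. The RBPJ core occurred in 4 of the 21, those of Hoxa6, Hoxa9, Hoxa13 and Hoxd3. The Cdx core occurred in 4 (Hoxa7, Hoxb8, Hoxd3 and 1 of the 2 starts of Hoxd11). The Hox and Pbx site occurred in 2 (Hoxa2 and the other start of Hoxd11) and TATAAA in 3 (Hoxa10, Hoxb8 and Hoxd13). CG pairs, frequent where DNA is unmethylated in the germ line, numbered 7 and 20 at the outer and inner Hoxa10 starts and 28 at Hoxa5, with a median of 13 over the Hox windows and 6 over all windows. The sources used here do not give probe positions, so which Hoxa10 transcript the probe reads, and whether a probe also binds RNA of a paralogue, was not tested.

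The genes on both sides of Hoxa10 did not share its range in the same way. Hoxa11, a regulator of the forearm skeleton and the uterus, read 89.7, 89.7 and 94.4 in OP9, OP9-GFP and OP9-DL, nearly the same on each. Hoxa9, known for its role in blood progenitors, read 1.3, 3.7 and 2.7, lowest on the OP9 array as for Hoxa10, but all 3 values were below the brightness limit. Hoxa13, the gene of the outermost limb, read 1.3 in OP9 and was blank in the other lines.

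The other Hoxa probes were close between arrays. Hoxa2, which patterns the hindbrain and the second pharyngeal arch, read 155.0, 123.9 and 128.1 and was highest in OP9. Hoxa7 read 91.2, 87.7 and 79.0. Hoxa4 read 16.9, 18.3 and 17.9, and Hoxa6 8.1, 9.8 and 10.2. Across these 4 genes no pair of arrays was more than 1.26-fold apart.

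In the Hoxb cluster 3 probes were bright, and their differences were small. Hoxb9, a gene of the thoracic region, read 42.4, 38.1 and 47.6 in OP9, OP9-GFP and OP9-DL. Hoxb3 read 10.2, 8.7 and 8.0, and Hoxb8 6.4, 8.1 and 5.9. Each stayed within 1.5-fold over the 3 arrays, and the high array differed from gene to gene.

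The dim Hoxb probes held neighbours that were high on the OP9-DL array. Hoxb5 read 3.1, 3.9 and 8.9, Hoxb6 3.0, 3.8 and 11.6, and Hoxb7 5.1, 5.5 and 7.8. Each passed 6.13 on the OP9-DL array and on neither other array, Hoxb7 by a small step. How many of all dim probes did so was not counted, so these neighbours have no background share beside them. Since the readings of the other lines are so low, no fold is given for these genes. The genes beyond them did not show this order: Hoxb4, known for expanding blood stem cells, read 6.3, 5.3 and 6.4 on the other side of Hoxb5, and Hoxb8 was lowest in OP9-DL. Hoxb1, which specifies a hindbrain segment, read 5.4, 6.6 and 6.4, and its mean of 6.11 lay just under the limit. Hoxb13, a gene of the tail and prostate, read 2.4, 3.6 and 2.5.

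In the Hoxc cluster, Hoxc6, a thoracic gene of the same paralogue group as Hoxb6, was blank in OP9 and read 1.1 in OP9-GFP and 14.0 in OP9-DL. Only the OP9-DL value reached the brightness limit, and no fold is given against a blank or a value so near the bottom of the scale. Of 695 probes blank on the OP9 array with a value on the OP9-DL array, 13 (1.87%) reached 6.13 there and 3 reached 14.0 or more, Hoxc6 included. Its neighbour Hoxc5 read 3.1, 2.8 and 3.4, with no such step, and Hoxc8, on the other side, read 1.5 and 1.7 on the OP9 and OP9-GFP arrays and was blank on the OP9-DL array.

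The posterior Hoxc probes were the steady ones. Hoxc9 read 36.3, 34.4 and 30.6, Hoxc10, a gene of the lumbar region and hindlimb, 16.6, 15.8 and 15.0, and Hoxc13, which is required for hair and nails, 43.7, 41.4 and 46.7. None differed by as much as 1.25-fold between any arrays. Hoxc12, which lies between Hoxc13 and Hoxc11, read 1.0, 2.9 and 3.5, low throughout and lowest in OP9.

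Of the Hoxd probes, Hoxd1, which in the mouse acts in pain-sensing neurons, was bright. It read 33.6, 35.8 and 48.7 in OP9, OP9-GFP and OP9-DL, 1.45-fold above OP9 and 1.36-fold above OP9-GFP on the OP9-DL array. Hoxd3, Hoxd8, Hoxd9 and Hoxd10 had values on all arrays with means below the limit, from 2.4 to 6.5 over all 12 readings. The genes that shape the outer limb gave only readings near the bottom of the scale: Hoxd11 read 1.1 in OP9-DL and was blank elsewhere, Hoxd12 read 1.5 and 1.3 on the OP9 and OP9-GFP arrays, and Hoxd13 read 1.4 and 2.3 on the OP9-GFP and OP9-DL arrays.

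**Figure D3:**
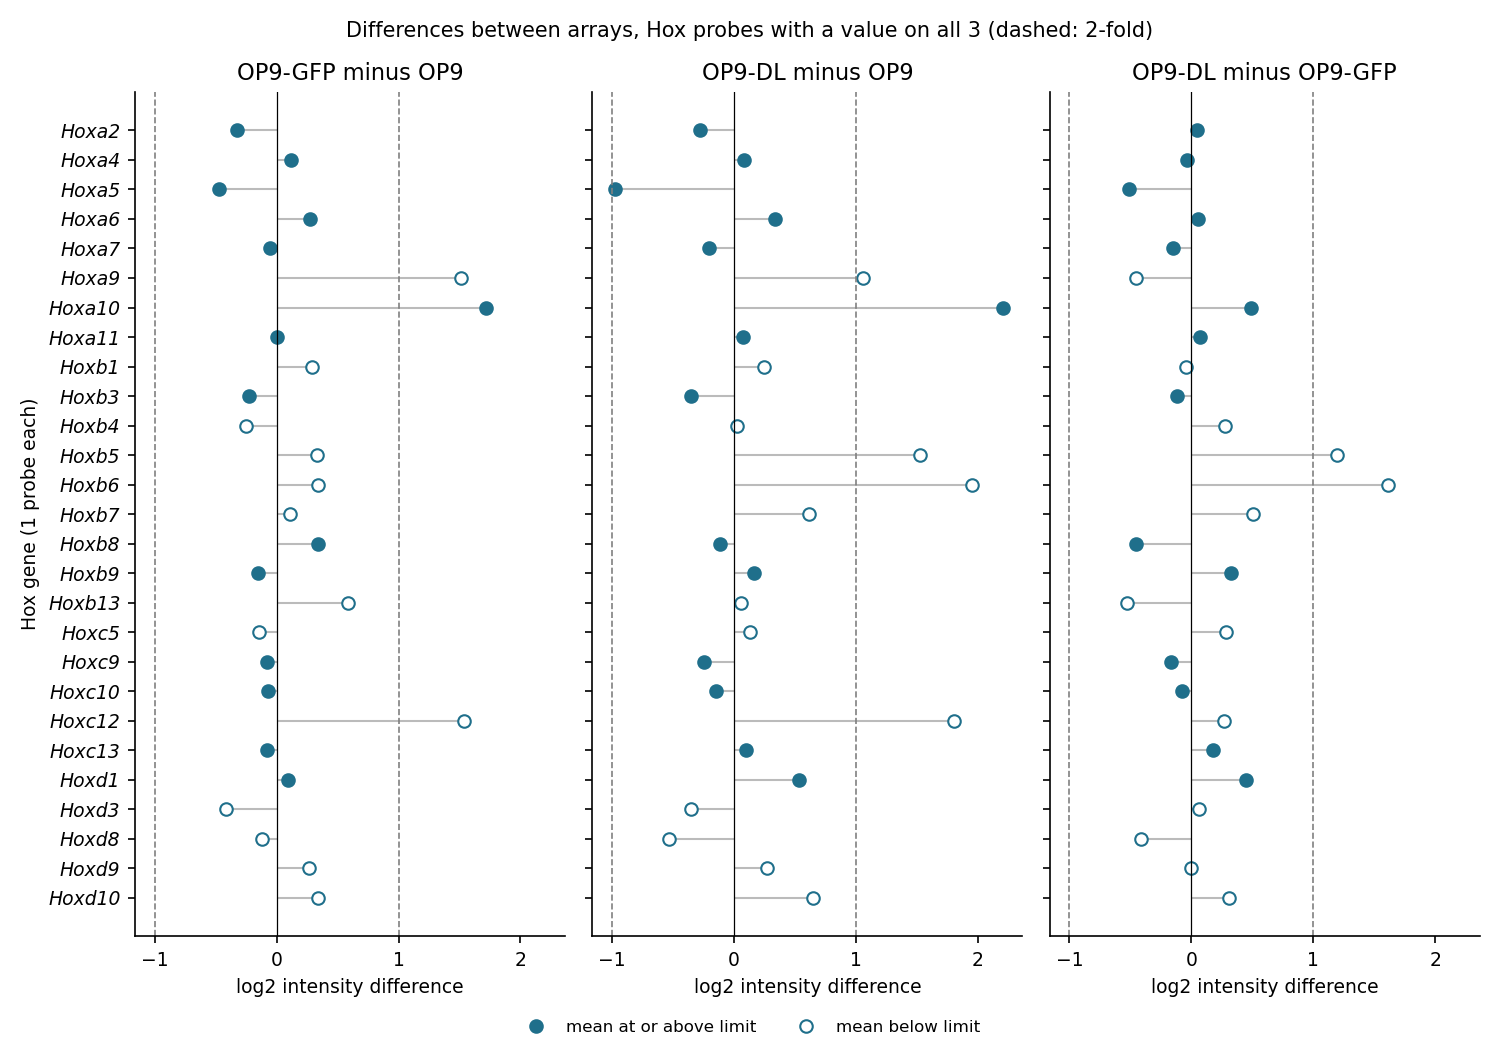
Log2 intensity difference of the 27 Hox probes with a value on all arrays, in 3 panels for OP9-GFP minus OP9, OP9-DL minus OP9 and OP9-DL minus OP9-GFP; filled points had a mean at or above the brightness limit, open points a mean below it, and dashed lines mark 2-fold. Hoxa10 is the filled point past 2-fold in both panels against OP9, and no filled point passes it in the last panel.

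Counted over the 14 bright probes, OP9-GFP against OP9 had 1 higher by 2-fold or more, Hoxa10, and 0 lower. Of all 15581 probes compared, 4.86% were higher and 6.75% lower. OP9-DL against OP9 again had Hoxa10 higher and 0 lower, with 4.33% higher and 6.92% lower over all probes. Of OP9-DL against OP9-GFP, the pair that the labels set apart by Delta-like 1, 0 of 14 were higher and 0 lower, with 2.31% and 2.73% over all probes. With 14 probes, counts of 0 and 1 lie near the counts that these shares would give. Both comparisons with OP9 share its array, so Hoxa10 passing in each is not a repeat. At 1.5-fold or more the counts were 1, 2 (Hoxa10 and Hoxa5) and 0 of 14 in the same order, where 29.4%, 29% and 16.2% of all probes passed in either direction.

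The 13 dim probes with 3 values had more members past 2-fold, all of them higher in the line named first. For OP9-GFP against OP9 there were 2, Hoxa9 and Hoxc12, where 6.08% of all 5194 dim probes were higher. For OP9-DL against OP9 there were 4, Hoxa9, Hoxb5, Hoxb6 and Hoxc12, against 7.51%. For OP9-DL against OP9-GFP there were 2, Hoxb5 and Hoxb6, against 6.55%. No dim Hox probe was 2-fold lower in any comparison, where 6.49%, 5.43% and 4.6% of all dim probes were. Each of these genes passed in 2 comparisons that share an array, so the second pass is not a repeat. For Hoxa9 and Hoxc12 it was the OP9 array, where they read 1.3 and 1.0, near its lowest value. For Hoxb5 and Hoxb6 it was the OP9-DL array. Values this low give a direction between arrays and no firm fold.

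The bright Hox probes varied little beside the whole array. The ratio of a probe's highest to its lowest array was under 1.5 for 12 of 14 bright Hox probes (85.7%) and for 56.4% of all compared probes, with medians of 1.25 and 1.43. Hoxa11 (1.05), Hoxa4 (1.08), Hoxc10 (1.11) and Hoxc13 (1.13) were among the 12, and Hoxa10 (4.61) and Hoxa5 (1.97) were the others. The median log2 difference of the 14 was -0.06 for OP9-GFP minus OP9, -0.02 for OP9-DL minus OP9 and 0.01 for OP9-DL minus OP9-GFP, and that of all compared probes 0.02, 0.02 and -0.01. The sign of each Hox median turned under some of the other settings.

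Hox proteins bind DNA together with TALE homeodomain proteins of the Pbx, Meis and Pknox families. Of 6 such partner genes and regulators that could be compared, 2 were at least 2-fold higher and 1 lower in OP9-GFP than in OP9, beside 11.6% of all probes in either direction, with a list median of 0.38. Meis1, a partner of posterior Hox proteins, read 9.5, 40.2 and 25.2 in OP9, OP9-GFP and OP9-DL, low in OP9 like Hoxa10 but highest in OP9-GFP. It was 4.23-fold higher in OP9-GFP and 2.65-fold higher in OP9-DL than in OP9. Pbx3 read 26.7, 59.6 and 42.2. Pbxip1, whose protein binds Pbx proteins and keeps them from DNA, read 433.8, 200.2 and 208.9, the opposite order. In OP9-DL against OP9, Meis1 was higher and Pbxip1 lower, with a median of 0.55, beside 11.2% of all probes. In OP9-DL against OP9-GFP 0 of 6 passed 2-fold, beside 5.04%, with a median of 0.02.

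Polycomb complexes keep silent Hox genes silent through methylation of histone H3 and ubiquitination of H2A. Of 29 genes for their subunits that could be compared, 4 were higher and 1 lower by 2-fold or more in OP9-GFP than in OP9 (median 0.11). Bmi1 read 27.2, 64.2 and 64.1 and Phc2 137.1, 305.6 and 186.0, both subunits of the Polycomb complex that ubiquitinates H2A, while Cbx7, another, read 22.2, 11.0 and 17.8. Ezh2, the main methyltransferase of Polycomb, read 506.3, 734.7 and 598.4, within 2-fold. In OP9-DL against OP9 Bmi1 was higher and 2 were lower, Ezh1 (45.8, 26.8 and 22.7), a relative of Ezh2, and Phf19 (11.7, 12.4 and 2.8), an accessory subunit (median -0.21). Phf19 was also the only member past 2-fold in OP9-DL against OP9-GFP, where the median was -0.28. Its OP9-DL reading was below the brightness limit, so no fold is given. Of all probes 4.86% were higher and 6.75% lower in OP9-GFP against OP9, 4.33% and 6.92% in OP9-DL against OP9, and 2.31% and 2.73% in OP9-DL against OP9-GFP.

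Trithorax proteins oppose Polycomb and keep active Hox genes on. Of 11 genes of this group and of demethylases that undo the Polycomb mark, Wdr5, a core subunit of the Trithorax methyltransferases, was the only one past 2-fold, in OP9-GFP against OP9 (70.2, 158.2 and 116.1), beside 11.6% of all probes. Kmt2a, the methyltransferase that maintains Hox expression, read 60.3, 41.8 and 57.8. The list medians were 0.05 for OP9-GFP minus OP9, -0.07 for OP9-DL minus OP9 and -0.12 for OP9-DL minus OP9-GFP.

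Retinoic acid and Cdx proteins switch Hox clusters on in the embryo. Of 15 genes listed with these inputs, Gmnn was the only one past 2-fold in any comparison, at 2.81-fold higher in OP9-GFP than in OP9 (405.6, 1138.3 and 660.1). Of all probes, 11.6% passed in that comparison, 11.2% in OP9-DL against OP9 and 5.04% in OP9-DL against OP9-GFP. Gmnn, itself neither a retinoic acid nor a Cdx gene, encodes geminin, a brake on DNA replication that can also bind Hox proteins. The receptor genes Rara (29.8, 29.6 and 35.0) and Rarg (27.0, 34.2 and 26.6) and the Cdx genes Cdx1 (37.9, 41.0 and 44.5) and Cdx2 (41.6, 40.2 and 39.7) were close between arrays. The list medians were 0.34, 0.22 and -0.15 in the order of comparisons used above.

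Genes beside the clusters were compared because neighbours can share regulatory DNA with Hox genes. Of 10 such genes, 1 was higher and 1 lower by 2-fold or more in OP9-GFP than in OP9, beside 4.86% and 6.75% of all probes. Lnpk, which lies beyond the tail end of the Hoxd cluster and encodes a protein of the endoplasmic reticulum, read 39.3, 108.3 and 96.7, high in both GFP lines. The bright Hoxd1 showed no such step, and the other Hoxd probes read too low to tell. Hoxd13, at the tail end of the cluster, was blank in OP9 and read 1.4 and 2.3 in OP9-GFP and OP9-DL. Mtx2, at the other end of that cluster, read 494.6, 665.2 and 926.3. Skap2, beyond the head end of the Hoxa cluster, read 1047.8, 505.9 and 584.8, and Snx10, farther out on the same side, 160.1, 80.3 and 58.8, the opposite order to Hoxa10. Evx1, a homeobox gene beyond Hoxa13, read 55.2, 45.2 and 56.3. In OP9-DL against OP9 Lnpk was higher and Snx10 lower by 2-fold or more, beside 4.33% and 6.92%, and in OP9-DL against OP9-GFP 0 of the 10 passed, beside 5.04% in either direction.

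Homeobox genes that mark the skull, jaws and limbs were compared in the same way. Of 22 genes of head and skull, Dlx3, a gene of the jaws, teeth and bone, was lower in OP9-GFP and OP9-DL than in OP9 (27.7, 4.5 and 3.8), with both low readings under the brightness limit, so that no fold is given. Prrx2, a gene of skeletal mesenchyme, was higher in both (145.3, 365.4 and 422.9). In all, 1 was higher and 2 lower in OP9-GFP against OP9, 2 higher and 2 lower in OP9-DL against OP9 and 0 in OP9-DL against OP9-GFP, where the median was 0.21. Over all probes 11.6%, 11.2% and 5.04% passed in either direction, which also applies to the limb genes. Msx1 (38.7, 40.6 and 46.8) and Pax9 (1936, 1522 and 2185), both known from the head skeleton, stayed within 2-fold. Of 12 limb and regional genes 0 passed in OP9-GFP against OP9, and 2 were higher and 2 lower in OP9-DL against OP9. The homeobox genes Irx3 (71.4, 43.9 and 12.2) and Irx5 (87.3, 54.6 and 36.9) were lower in OP9-DL than in OP9. Irx2 (8.8, 13.6 and 17.6) and Lmx1b (9.4, 17.5 and 20.8) were higher, and Irx6 (6.7, 6.4 and 6.4) was nearly the same on each array. In OP9-DL against OP9-GFP 2 of the 12 were lower, Irx3 and Tbx18 (13.9, 15.2 and 7.4).

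**Figure D4:**
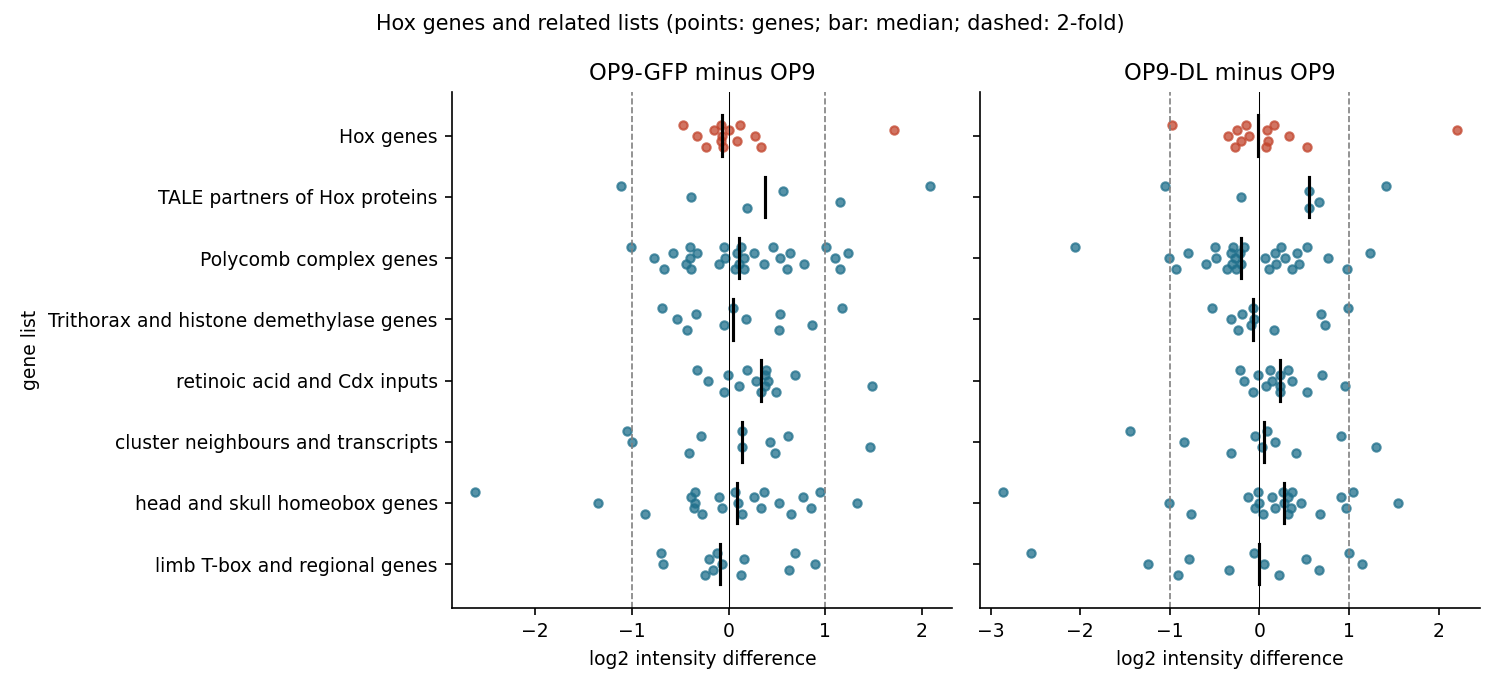
Log2 intensity difference of OP9-GFP minus OP9 (left) and OP9-DL minus OP9 (right) for the 14 bright Hox genes (red) and the genes of 7 related lists (blue); each point is a gene, black bars are list medians and dashed lines mark 2-fold. The Hox points lie within 0.54 of 0 except Hoxa10 and, in the right panel, Hoxa5 at -0.98.

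Of the 7 blood cell markers that could be compared, 2 were higher by 2-fold or more in OP9-DL than in either other line. Cd48, among the 2, read below 6.13 on both other arrays and could be compared only through its high OP9-DL value. The brightness limit thus fixed part of this count. Of all probes, 4.33% were higher than in OP9 and 2.31% higher than in OP9-GFP. Hoxb5, Hoxb6, Hoxb7 and Hoxc6 also had their highest readings on the OP9-DL array, though these were low, from 7.8 to 14.0. Of 13 blood cell probes, 5 reached 6.13 in OP9, 6 in OP9-GFP and 7 in OP9-DL, and their summed intensity was 106.8, 123.5 and 1050.9. The rise lay in Tpsab1, a mast cell tryptase (20.6, 9.0 and 818.9), and Cd48 (2.1, 3.0 and 114.4), whereas Ptprc, which marks all leukocytes, read 2.1, 2.5 and 2.8 and Kit was blank on both GFP arrays. The other 5 markers that could be compared stayed within 2-fold in OP9-DL against either line, among them Cpa3 (4.9, 8.1 and 6.7). The part of these markers in the Hox readings was not tested, and in a bulk sample more cells of a type and more RNA per cell cannot be told apart. Of 7 endothelial probes 1 to 2 reached the limit on an array, with sums from 32.6 to 43.3, and of 4 epithelial probes 2 to 3, with sums from 195.2 to 267.6.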

How the data were processed

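The deposited table holds 1 linear intensity per probe and array, scaled by the authors to a median of 20. Per the labels' protocols, total RNA was amplified to amino allyl RNA and coupled to Cy5, 1 colour per array. The sources used here do not give the scanner, the background correction, the genome build or the rule for blank cells. Values were used as deposited, and log2 was taken with no constant added. Gene names came from the annotation table of the platform (16631 with 1 symbol, 6842 without), and were updated through RefSeq (GRCm38.p6): 12622 were current, 3947 renamed and 62 kept. The mean was taken over the probes of a listed gene. A difference counted at 2-fold or more. The number of arrays, 3, limits the precision. The Hox probes, the 7 related lists and the 4 marker lists were chosen with earlier results of these data known. All Hox probes are reported, and of other lists mainly the members past 2-fold or the 2 highest and 2 lowest; others named (such as Ezh2, Kmt2a, Rara, Rarg, Cdx1, Cdx2, Msx1 and Pax9) were chosen after their values were seen. Counting was tested on simulated arrays. Alternatives were other scalings, brightness limits, folds, a constant of 2.2, filled blanks and other ways to pick a probe. The software was Python 3.11.15 with statsmodels 0.14.6 (lowess), matplotlib 3.10.9, pandas 2.3.3 and numpy 2.4.6.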

Additional observations from a re-analysis of the deposited data

How the results depend on the processing

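Hoxa10 was past 2-fold against OP9 in both GFP lines under every setting tried that kept the 2-fold threshold, and past 3-fold in both at that threshold. Its log2 difference ran from 1.56 to 1.72 for OP9-GFP minus OP9 and from 2.02 to 2.25 for OP9-DL minus OP9. Without a brightness limit, 27 Hox probes were compared. Those past 2-fold numbered 3 in OP9-GFP against OP9, 5 in OP9-DL against OP9 and 2 in OP9-DL against OP9-GFP. Of all probes, 11.9%, 11.7% and 6.57% then passed in the same order. With blanks also set to the lowest value of their array, the Hox probes past 2-fold numbered 3, 7 and 3 of 33. The shares of all probes were then 12.6%, 12.5% and 8.01%. At 1.5-fold, OP9-DL against OP9 had 2, Hoxa10 and Hoxa5. These settings admit dimmer probes or smaller differences by construction. Of 10 alternatives to each comparison, 8, 7 and 8 left its count as it was. Those include the 2 choices among probes of a gene, which could not move the count. The median log2 difference of the Hox probes ran from -0.08 to 0.09, from -0.06 to 0.10 and from -0.01 to 0.07 in the same order, so its sign is not settled. With the limit at the 50th percentile (an intensity of 23.3), 9 Hox probes were bright, and 21 and 13 reached 6.13 on at least 1 and on all arrays. Over the other 7 lists and the 3 comparisons together, 33 of 315 differences passed 2-fold, 87 passed 1.5-fold and 7 passed 3-fold. Of all probes bright enough to compare, 11.6%, 11.2% and 5.04% passed 2-fold in OP9-GFP against OP9, OP9-DL against OP9 and OP9-DL against OP9-GFP. In the same order 29.4%, 29% and 16.2% passed 1.5-fold, and 3.57%, 4.22% and 1.76% passed 3-fold. Hox genes have 1 probe each here, so choices among probes changed nothing. No paired analysis was possible because each line has 1 array. Many Hox readings lie near the bottom of the scale, where signal over background limits what can be compared.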
